A study of Mus musculus with 15 samples.

Results

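The hypoxia response and glycolysis genes described here are 33 genes listed by symbol: 6 that sense oxygen, 19 of glycolysis and its transporters, and 8 that are targets of hypoxia signalling. A gene counted as measured when a probe set of the array named it alone, and 30 of the 33 were measured, of 19938 genes in all. Gpi1 (glucose-6-phosphate isomerase), Gapdh and Eno1 had no probe set naming that gene alone and were not analysed here. The study itself named Hif1a, Ndrg2 and Egln3 from these arrays, so that their directions are not independent evidence.

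When oxygen is plentiful, prolyl hydroxylases of the Egln family mark the alpha subunits HIF-1α and HIF-2α, which the von Hippel-Lindau protein then sends for destruction. When oxygen is short, the alpha subunits persist, pair with the product of Arnt and switch on genes for glucose uptake, glycolysis, lactate export and survival. In inflamed joints, hypoxia of the synovium and glycolytic activity of its cells are much studied features.

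RNA had been measured in whole tarsal joints of male DBA/1JBom mice, 1 joint and 1 array per mouse, on Affymetrix Mouse Gene 1.0 ST arrays. In the arthritic mice, collagen-induced arthritis, a model of rheumatoid arthritis, had been raised by intradermal chicken collagen type II in complete Freund's adjuvant and a boost in incomplete adjuvant. Joints with a clinical score of 3 were taken at day 0 to 3 (2 arrays used), week 1 to 2 (3 arrays) and week 3 to 4 (3 arrays) of arthritis. The declining phase (3 arrays) held joints whose score had fallen after at least 2 weeks at a score of 3, or at least 3 weeks in the design text, and the 3 control joints came from mice that were not induced. The study's array methods call these controls non-immunised, while its account of the model speaks of controls given both adjuvants without collagen. The sources used here give no ages. The array of animal 57 at day 0 to 3 failed quality control per the labels and was left out unless stated. The SD of the log2 values over genes was 1.22 to 1.46 on the control arrays and 1.28 to 1.65 on the others. All genes together were shifted by a median of -0.12 (day 0 to 3) and -0.13 (week 1 to 2) on the log2 scale. The array names carry 1 of 2 letter codes of unstated meaning or, for the controls, none, so that code and phase cannot be told apart in comparisons with control. A whole joint holds many cell types, and fewer cells of a type cannot be told apart from less RNA per cell.

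The promoters of the 6 members called in at least 1 comparison are shown because HIF binds the core letters of the hypoxia response element, here ACGTG and GCGTG, in such regions. Each sequence runs 5′ to 3′ on the gene's strand from 250 bases before to 50 bases after a start site, from RefSeq on GRCm38.p6. Capitals mark the core letters on either strand, CACGT and CACGC being their reverse complements, and overlapping matches are joined. Where a gene had several starts, the one with the most matches is shown, which applied to Aldoa and Ndrg2 with 3 starts each. The regions are chr12:73907617-73907916 (plus strand) for Hif1a, chr8:124949205-124949504 (minus) for Egln1, chr12:54203825-54204124 (minus) for Egln3, chr7:126799129-126799428 (minus) for Aldoa, chr4:119108495-119108794 (plus) for Slc2a1 and chr14:51913439-51913738 (minus) for Ndrg2.
Hif1a: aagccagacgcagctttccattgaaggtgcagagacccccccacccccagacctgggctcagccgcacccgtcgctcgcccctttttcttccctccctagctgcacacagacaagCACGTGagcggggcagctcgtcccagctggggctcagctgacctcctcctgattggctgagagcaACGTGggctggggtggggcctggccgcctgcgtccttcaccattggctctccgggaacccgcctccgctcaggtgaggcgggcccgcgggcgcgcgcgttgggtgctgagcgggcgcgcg
Egln1: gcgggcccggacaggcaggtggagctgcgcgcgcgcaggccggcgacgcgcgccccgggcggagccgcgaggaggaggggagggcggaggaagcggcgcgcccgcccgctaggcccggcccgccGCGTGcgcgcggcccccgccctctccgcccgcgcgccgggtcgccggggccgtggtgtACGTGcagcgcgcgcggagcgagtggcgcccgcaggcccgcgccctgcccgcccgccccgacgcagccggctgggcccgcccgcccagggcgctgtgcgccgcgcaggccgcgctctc
Egln3: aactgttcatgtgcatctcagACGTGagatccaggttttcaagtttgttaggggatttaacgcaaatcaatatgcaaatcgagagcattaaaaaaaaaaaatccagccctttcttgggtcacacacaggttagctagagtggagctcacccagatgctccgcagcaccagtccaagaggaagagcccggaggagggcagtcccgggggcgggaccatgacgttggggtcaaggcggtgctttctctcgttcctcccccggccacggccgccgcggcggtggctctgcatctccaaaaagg
Aldoa: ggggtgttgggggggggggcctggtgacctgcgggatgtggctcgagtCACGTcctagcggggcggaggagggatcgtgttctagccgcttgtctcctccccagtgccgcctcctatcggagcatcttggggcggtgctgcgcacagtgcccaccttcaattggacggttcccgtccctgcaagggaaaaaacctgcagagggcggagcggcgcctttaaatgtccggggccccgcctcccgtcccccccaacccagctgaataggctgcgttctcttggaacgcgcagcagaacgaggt
Slc2a1: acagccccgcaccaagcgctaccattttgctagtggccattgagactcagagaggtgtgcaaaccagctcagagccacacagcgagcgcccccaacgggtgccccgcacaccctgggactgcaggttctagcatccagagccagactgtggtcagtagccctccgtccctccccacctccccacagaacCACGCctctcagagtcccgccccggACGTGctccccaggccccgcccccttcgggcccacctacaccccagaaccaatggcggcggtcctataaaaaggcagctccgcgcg
Ndrg2: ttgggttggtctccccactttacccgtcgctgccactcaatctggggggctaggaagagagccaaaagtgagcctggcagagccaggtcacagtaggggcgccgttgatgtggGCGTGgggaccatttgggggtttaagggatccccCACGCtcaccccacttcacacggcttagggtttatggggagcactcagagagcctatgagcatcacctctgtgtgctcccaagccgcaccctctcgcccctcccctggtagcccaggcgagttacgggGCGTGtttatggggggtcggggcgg

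The windows held 3 matches for Hif1a, of which a pair overlap in the palindrome CACGTG, and 2 for Egln1, 1 for Egln3, 1 for Aldoa, 2 for Slc2a1 and 3 for Ndrg2. Of the 30 measured members, 27 had a promoter in the RefSeq table, with 39 starts, and 79.5% of these starts held at least 1 match. Of all 32851 promoters of the same length, 43.8% did. Of the 29326 within the range of G and C content of the members, 47.3% did. Their median content of 54.3% lay below that of the members, so that this range does not match them in content. Counted by gene, 92.6% of the 27 members and 55.3% of 15614 measured genes with a promoter held a match at some start. The member windows were richer in G and C, with a median of 63.3% against 52.7% over all promoters. A match describes letters and is not evidence of binding.

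Among the members, the changes at day 0 to 3 ran in both directions and touched few genes. Hif1a rose 3.94-fold over control, while Aldoa, the muscle-type aldolase of glycolysis, fell 2.88-fold and Ndrg2, a member of the N-myc downstream regulated family, fell 5.202-fold. These 3 of 30 (10.0%) passed a limma test at an adjusted p under 0.05, against 7.82% of all genes tested (4.46% higher and 3.36% lower). In week 1 to 2, 5 members passed (16.7%, against 10.1% of all genes, 5.41% higher and 4.64% lower), with the prolyl hydroxylases Egln1 and Egln3 lower besides the same 3 genes in the same directions. In week 3 to 4 Aldoa and Ndrg2 passed, both lower (6.67%, against 1.55% of all genes and 0.592% of them lower). In the declining phase no member passed, nor did any other gene (0.0%), while 6 members and 2400 genes had an unadjusted p under 0.05. The 4 comparisons share their control arrays. The median change over the 30 members was -0.17, -0.21, -0.12 and -0.15 on the log2 scale in the 4 phases, and over all genes -0.12, -0.13, -0.09 and -0.05.

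**Figure D1:**
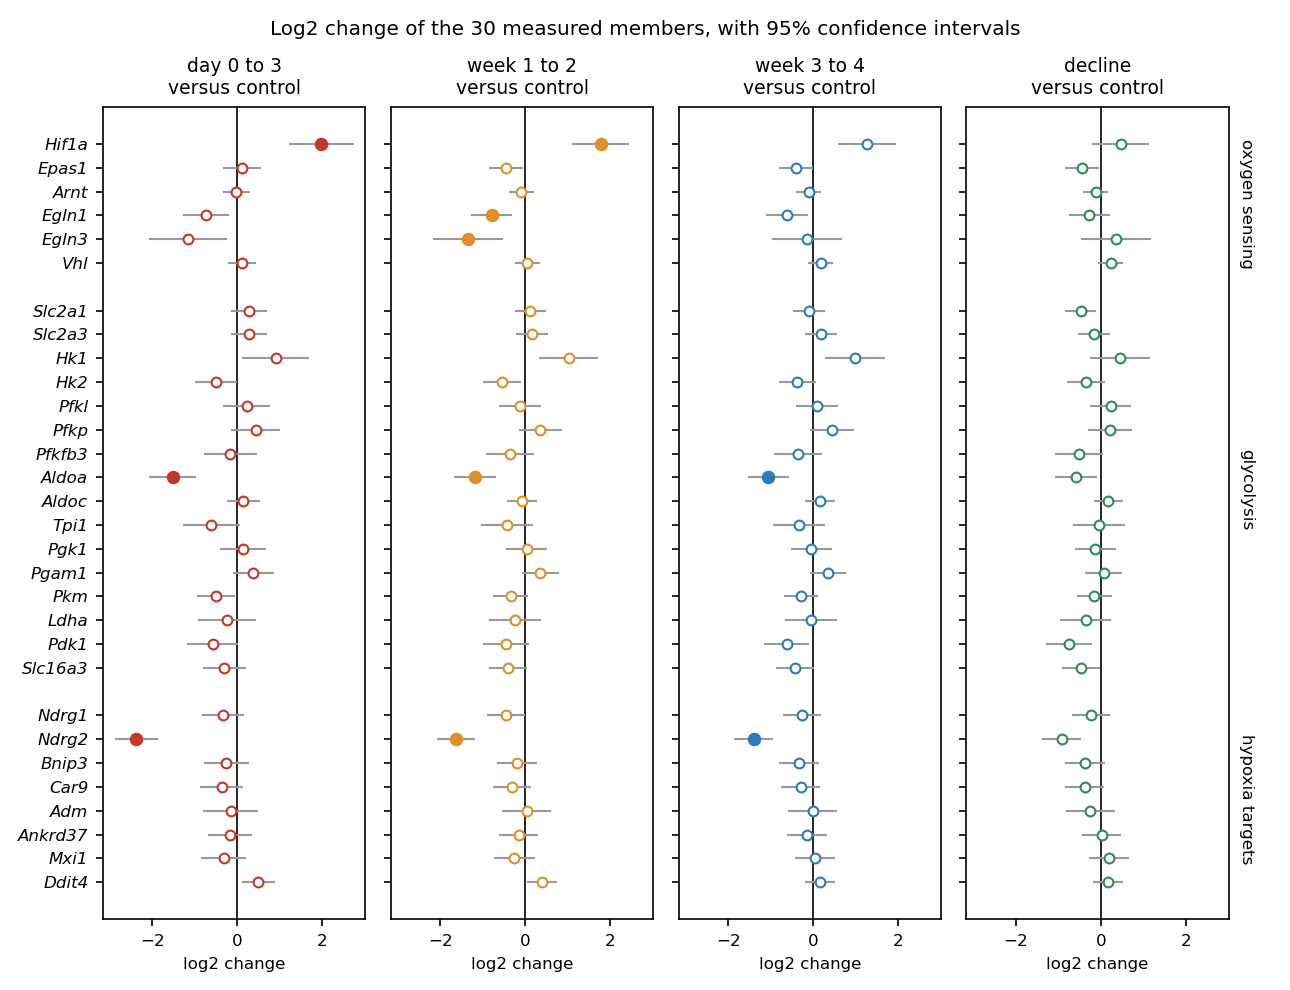
Log2 change against control (horizontal axis) of each measured member (rows, grouped by role) in the 4 phases, with 95% confidence intervals from limma; filled points passed at an adjusted p under 0.05. Most intervals cross or lie near 0, and the filled points are Hif1a to the right and Aldoa, Ndrg2, Egln1 and Egln3 to the left.

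Among the genes of oxygen sensing, Hif1a, which encodes the regulated alpha subunit of HIF-1, stood at log2 values of 8.83, 7.76 and 8.12 in the 3 control joints. It stood at 10.22 and 10.21 in the day 0 to 3 joints, and at 9.80, 10.05 and 10.20 in the week 1 to 2 joints. It measured 9.62, 9.22 and 9.67 in the week 3 to 4 joints, and 9.25, 8.94 and 7.92 in the declining phase. All arthritic joints sampled at a score of 3 therefore lay above every control joint, and the declining joints overlapped with the controls. The log2 change was 1.98 ± 0.35 (SE) at day 0 to 3 (adjusted p = 0.0062, limma) and 1.78 ± 0.32 in week 1 to 2 (adjusted p = 0.0059). In week 3 to 4 it was 1.27 ± 0.32, which missed the threshold (adjusted p = 0.058), and in decline 0.46 ± 0.32 (adjusted p = 0.58). The call in week 1 to 2 was kept in all 14 fits that each left out 1 array. With animal 57, whose joint gave a Hif1a value of 6.43, the change at day 0 to 3 was 0.72 (adjusted p = 0.86), and week 1 to 2 no longer passed (adjusted p = 0.22). The call at day 0 to 3 was also lost without animal 16 or without animal 18, with a change of 1.74 to 2.28 over all arrays left out in turn.

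Hif1a moved with markers of other cells. Over the 14 arrays its value correlated at r = 0.945 with the mean of 8 macrophage markers, at 0.951 with 7 endothelial markers, at 0.907 with the osteoclast markers and at 0.845 with the SD of the array. These points share the phase and the array, and the correlations are descriptions. The macrophage list had a mean of 7.96 in controls (7.53 to 8.42 by array), 9.27 in the day 0 to 3 joints and 8.93 in the week 1 to 2 joints. It had a mean of 8.71 in the week 3 to 4 joints and 8.28 in decline. At day 0 to 3, 4 of its 8 genes were called higher, against 4.46% of all genes. With the macrophage mean as a covariate, added after the data were seen, the Hif1a change was 0.70 at day 0 to 3 (adjusted p = 0.32) and 0.83 in week 1 to 2 (adjusted p = 0.14). With the skeletal muscle mean it was 2.03 (adjusted p = 0.34) and 1.79 (adjusted p = 0.021). At day 0 to 3, 0 of 19938 genes passed with the muscle mean, and 26 were higher and 67 lower with the macrophage mean. In week 1 to 2, 763 were higher and 567 lower with the muscle mean, and 40 and 41 with the macrophage mean.

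Epas1, which encodes the HIF-2α subunit, changed by 0.11 at day 0 to 3, with a 95% confidence interval of -0.35 to 0.57. Its control values were 8.77, 8.66 and 8.64, with 8.82 and 8.78 in the day 0 to 3 joints, 7.89, 8.44 and 8.40 in the week 1 to 2 joints, 8.45, 7.97 and 8.46 in the week 3 to 4 joints, and 8.27, 8.48 and 8.01 in decline. The joints of the 3 later groups all lay below the controls, and their changes of -0.45, -0.40 and -0.44 did not pass (adjusted p = 0.13, 0.22 and 0.39). Arnt, the shared partner subunit, changed by -0.12 to -0.02 over the 4 phases, with overlapping groups. Its value was exactly 7.8995 in every week 1 to 2 joint and in some week 3 to 4, declining and control joints. Exact ties between arrays also occurred in other members, among them Tpi1, Aldoc and Ndrg1. The source of these ties was not tested.

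The prolyl hydroxylases were lower in week 1 to 2. Egln1, the main oxygen sensor of the family, measured 8.52, 7.76 and 8.53 in controls, 7.62 and 7.43 in the day 0 to 3 joints, 7.30, 7.64 and 7.52 in the week 1 to 2 joints, 7.51, 7.75 and 7.72 in the week 3 to 4 joints, and 7.79, 8.42 and 7.80 in decline. Every joint at a score of 3 lay below the lowest control, though control 2 lay close to them. Its change was -0.79 ± 0.23 in week 1 to 2 (adjusted p = 0.043), -0.74 ± 0.25 at day 0 to 3 (adjusted p = 0.085) and -0.61 ± 0.23 in week 3 to 4 (adjusted p = 0.14). The call in week 1 to 2 was kept in 4 of the 14 fits that each left out 1 array.

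Egln3, a hydroxylase that is itself a well-known HIF target, measured 8.27, 8.17 and 8.59 in controls, 7.58 and 6.79 in the day 0 to 3 joints and 7.04, 7.11 and 6.81 in the week 1 to 2 joints. It then measured 7.33, 8.88 and 8.40 in the week 3 to 4 joints and 7.95, 9.36 and 8.76 in decline. The joints of both early groups lay below all controls and the later joints spread below and above the control range. The change was -1.36 ± 0.38 in week 1 to 2 (2.56-fold lower, adjusted p = 0.041), and -1.16 ± 0.43 at day 0 to 3, which did not pass (adjusted p = 0.11). The call in week 1 to 2 was kept in 5 of the 14 fits that left out 1 array. Egln3 followed a list of 7 epidermis markers, with r = 0.813 over the 14 arrays, although skin had been taken off at dissection by the study's methods. That list had a mean of 5.65 in the day 0 to 3 joints, 6.01 in the week 1 to 2 joints, 9.32 in the week 3 to 4 joints and 10.49 in decline, and ranged from 6.15 to 10.02 among the controls. With the epidermis mean as a covariate, also added later, the Egln3 change in week 1 to 2 was -0.99 (adjusted p = 0.091).

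Vhl, whose product recognises hydroxylated HIF, changed by 0.05 to 0.24 over the 4 phases. It measured 6.40, 6.73 and 6.62 in controls, 6.75 and 6.63 in the day 0 to 3 joints, 6.58, 6.62 and 6.71 in the week 1 to 2 joints, 6.79, 6.73 and 6.79 in the week 3 to 4 joints and 7.004, 6.74 and 6.73 in decline. The groups overlapped, and the 95% confidence interval of its change ran from -0.23 to 0.43 at day 0 to 3 and from -0.24 to 0.35 in week 1 to 2.

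**Figure D2:**
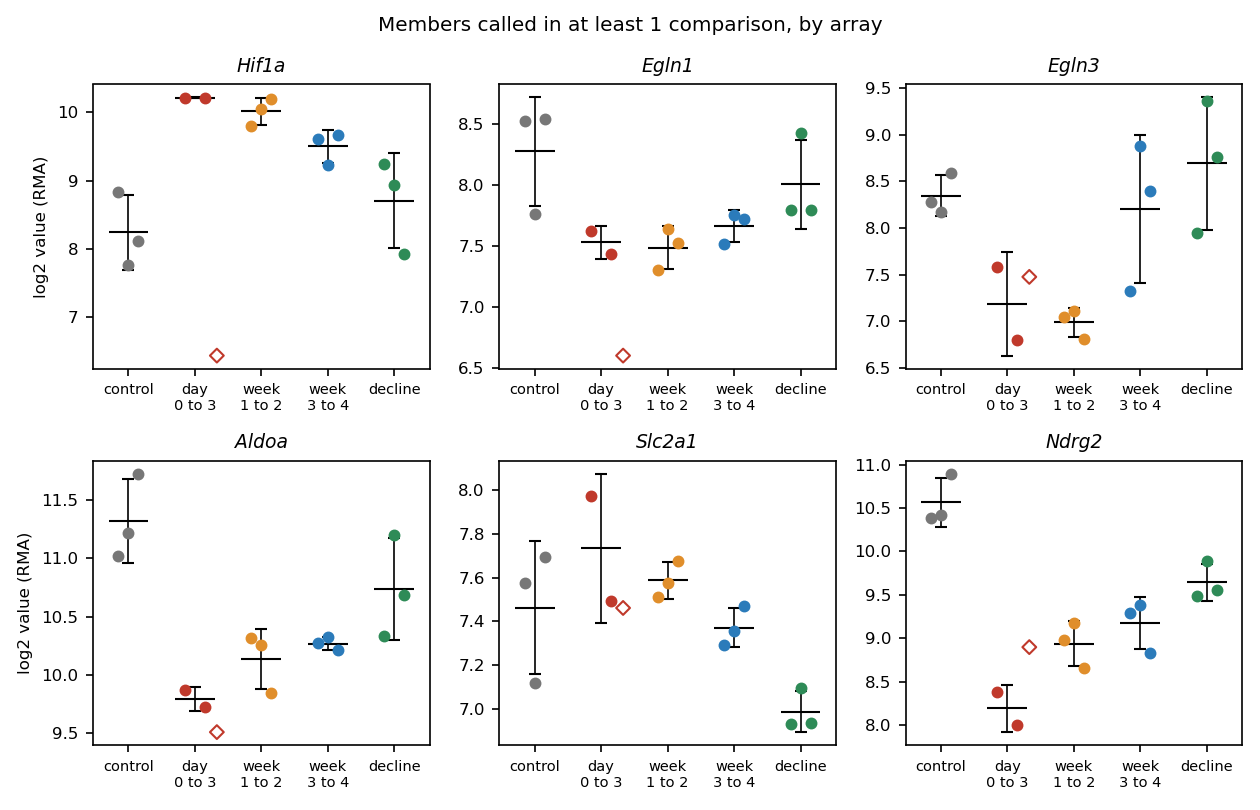
Log2 value of each array (vertical axis) for the 6 members called in at least 1 comparison, by group, with the group mean and SD over the filled points; the open diamond is animal 57, which failed quality control and enters no mean. Hif1a lies highest at day 0 to 3 and in week 1 to 2, Ndrg2 and Aldoa lie lowest at day 0 to 3, and Slc2a1 lies lowest in the declining joints.

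Of 13 further genes of oxygen sensing, a list chosen with earlier results known, 1 was higher and 1 lower in each of the first 2 phases. In week 3 to 4, 1 was lower. These were 15.4%, 15.4% and 7.69% of the list, against 7.82%, 10.1% and 1.55% of all genes. The higher gene was Eloc, elongin C of the ubiquitin ligase that contains the von Hippel-Lindau protein, with changes of 1.69 ± 0.47 and 1.88 ± 0.42 (adjusted p = 0.043 and 0.016). The lower gene was Hif1an, the asparaginyl hydroxylase that restrains HIF, with changes of -0.87, -0.73 and -0.89 in the first 3 phases (adjusted p = 0.023, 0.027 and 0.035).

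Of the 16 measured members of glycolysis, Aldoa alone passed against control in any phase, and the median change over the 16 was -0.02, -0.18, -0.07 and -0.15. Aldoa measured 11.02, 11.22 and 11.72 in controls, 9.87 and 9.72 in the day 0 to 3 joints and 10.32, 10.26 and 9.84 in the week 1 to 2 joints. It measured 10.27, 10.33 and 10.21 in the week 3 to 4 joints and 10.33, 11.20 and 10.68 in decline. All joints at a score of 3 lay below every control, and 1 of the declining joints reached the control range. The change was -1.52 ± 0.25 at day 0 to 3 (adjusted p = 0.0041), -1.18 ± 0.23 in week 1 to 2 (adjusted p = 0.0085) and -1.05 ± 0.23 in week 3 to 4 (adjusted p = 0.042). In decline it was -0.58 ± 0.23 (adjusted p = 0.35). The call in week 1 to 2 was kept in all 14 fits that left out 1 array, the call at day 0 to 3 in all but those without animal 16 or animal 18, and the call in week 3 to 4 in 4.

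Aldoa moved with markers of muscle and, inversely, with those of other cells. The mean of 16 skeletal muscle markers was 11.04 in controls (10.82 to 11.47 by array), 8.99 in the day 0 to 3 joints (8.89 to 9.10), 10.49 in the week 1 to 2 joints, 10.24 in the week 3 to 4 joints and 10.47 in decline. At day 0 to 3, 13 of the 16 markers were called lower and none higher. In the week 1 to 2 joints 4 were lower, in the week 3 to 4 joints 4, and in decline 0. Of all genes, 3.36%, 4.64%, 0.592% and 0.0% were lower. Over the 14 arrays, Aldoa correlated with this mean at r = 0.821, and as strongly in the opposite direction with the endothelial (-0.862) and osteoclast (-0.844) means, with -0.74 for the macrophage mean. The endothelial and osteoclast means were not fitted as covariates, and their part in the changes was not tested. With the muscle mean as a covariate, the Aldoa change was -0.18 at day 0 to 3 (adjusted p = 0.81) and -0.82 in week 1 to 2 (adjusted p = 0.028). In that fit 0 of 19938 genes passed at day 0 to 3, so that a lost call there is not particular to Aldoa. All visible muscle had been cut away at dissection, by the study's methods.

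The remaining 15 measured genes of glycolysis did not pass against control in any phase. For the glucose transporters Slc2a1 and Slc2a3, the changes ran from -0.48 to 0.27 and from -0.16 to 0.27. Hexokinase genes showed opposite signs, with Hk1 at 0.90, 1.03, 0.99 and 0.46 (adjusted p = 0.14, 0.059, 0.11 and 0.6) and Hk2 at -0.50, -0.54, -0.37 and -0.35. The Hk1 probe set used rests on an old accession, and a second Hk1 probe set changed by -0.10 to -0.02, so that the 2 disagree. For phosphofructokinase, Pfkl changed by -0.12 to 0.23 Pfkp by 0.21 to 0.44 and the regulatory enzyme Pfkfb3 by -0.51 to -0.17. Aldoc, the brain-type aldolase, changed by -0.07 to 0.18.

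Changes in the later steps of the pathway were of similar size. Triosephosphate isomerase (Tpi1) changed by -0.61 to -0.05, phosphoglycerate kinase (Pgk1) by -0.13 to 0.13, the mutase Pgam1 by 0.07 to 0.38 and pyruvate kinase (Pkm) by -0.50 to -0.15. Further probe sets of Pgam1 and Pkm changed by -0.08 to 0.24 and by -0.11 to 0.08, so that size and sign depend on the probe set. Ldha, which makes lactate and is a textbook HIF target, changed by -0.36 to -0.05. The 95% confidence interval of its change at day 0 to 3 ran from -0.92 to 0.43. Pdk1, which holds pyruvate back from the mitochondria, changed by -0.75 to -0.45, and its joints at day 0 to 3, in week 3 to 4 and in decline all lay below the controls without passing (adjusted p = 0.21, 0.16 and 0.28). The lactate exporter Slc16a3 changed by -0.47 to -0.31.

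**Figure D3:**
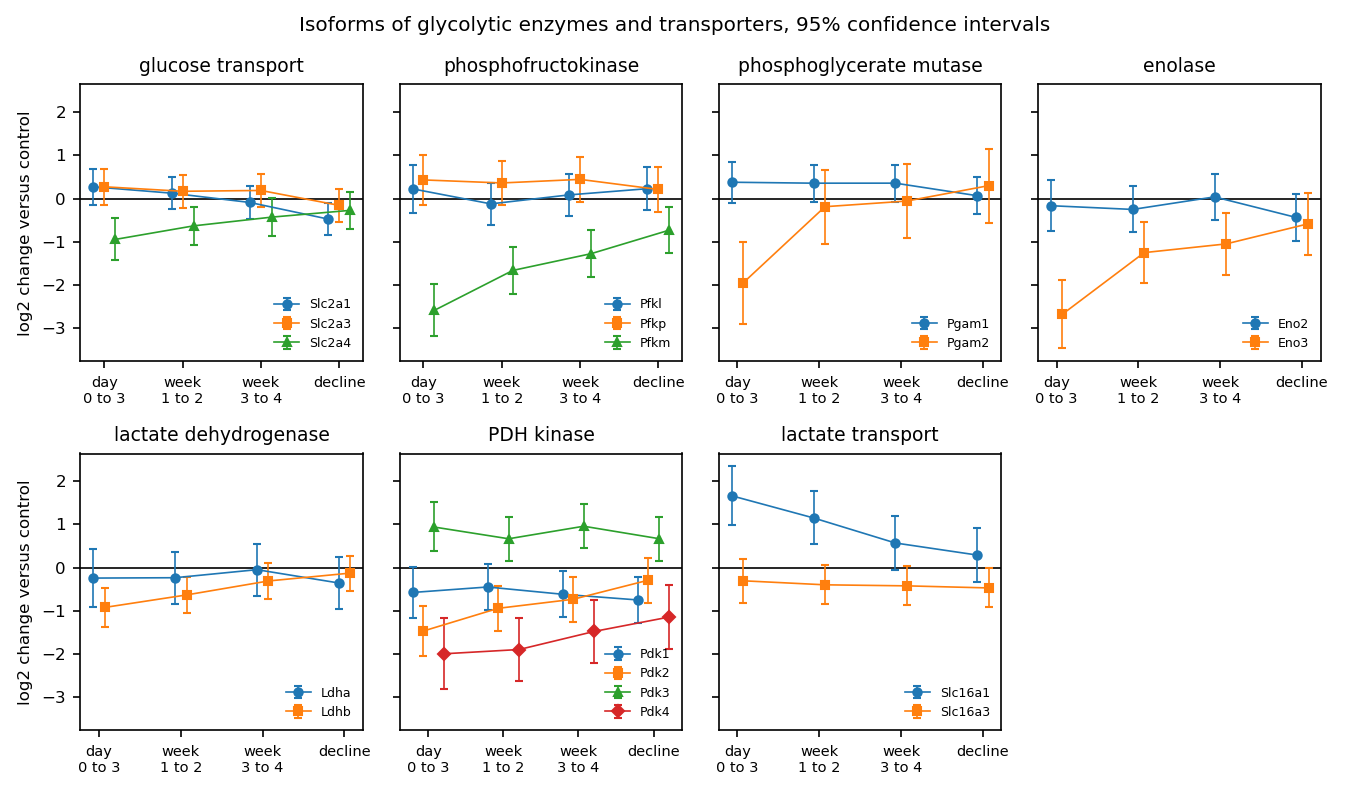
Log2 change against control (vertical axis) in the 4 phases for members and for related genes of the same step, with 95% confidence intervals from limma; lines join the phases, which are different mice. Pfkm, Eno3, Pgam2, Pdk2 and Pdk4 have the lowest points at day 0 to 3, and Slc16a1 and Pdk3 lie above 0.

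A list of 25 further genes of glycolysis and glycogen, of which 22 were measured, was counted in the same way. Of all genes, 7.82%, 10.1% and 1.55% passed against control in the first 3 phases, with 3.36%, 4.64% and 0.592% lower. Of the 22 in the list, 2 were higher and 9 lower at day 0 to 3, and 1 higher and 7 lower in week 1 to 2. In week 3 to 4, 0 of the list were higher and 3 lower, and in decline none passed. The 4 with the largest changes were lower at day 0 to 3: muscle glycogen phosphorylase (Pygm) fell by 3.28, the muscle enolase Eno3 fell by 2.68, the muscle phosphofructokinase Pfkm fell by 2.59 and the pyruvate dehydrogenase kinase Pdk4 fell by 2.00 on the log2 scale, with adjusted p from 5.8e-04 to 0.0092. Pygm is also among the muscle genes that the study chose on these arrays, so its direction is not independent evidence. The 2 higher genes, named after their values were seen, were Slc16a1, a lactate and pyruvate transporter, at 1.67 ± 0.32 (adjusted p = 0.0093) and another kinase of that family, Pdk3, at 0.94 ± 0.26 (adjusted p = 0.045). These values stand beside the fall of the muscle markers given above, whose part in them was not tested.

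Of the 8 hypoxia targets among the members, Ndrg2 alone passed against control. It measured 10.39, 10.42 and 10.90 in controls, 8.38 and 7.997 in the day 0 to 3 joints and 8.98, 9.18 and 8.66 in the week 1 to 2 joints. It measured 9.30, 9.39 and 8.83 in the week 3 to 4 joints and 9.49, 9.89 and 9.55 in decline. Every arthritic joint lay below every control, the declining joints included, and day 0 to 3 had the lowest values. The change was -2.38 ± 0.24 at day 0 to 3 (adjusted p = 5.3e-04), -1.63 ± 0.21 in week 1 to 2 (3.10-fold lower, adjusted p = 0.0019) and -1.40 ± 0.21 in week 3 to 4 (2.64-fold lower, adjusted p = 0.015). In decline it was -0.92 ± 0.21 (adjusted p = 0.15). The first 2 calls were kept in all 14 fits that left out 1 array and with animal 57 added (adjusted p = 0.0011 and 0.024), and the call in week 3 to 4 in 13, lost without animal 60.

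Ndrg2 also moved with several lists over the 14 arrays, at r = 0.838 with the muscle mean, -0.86 with the osteoclast mean, -0.84 with the endothelial mean and -0.778 with the macrophage mean. With the muscle mean as a covariate, its change was -1.39 at day 0 to 3 (adjusted p = 0.32, limma). It was -1.37 in week 1 to 2 (adjusted p = 0.008) and -1.01 in week 3 to 4 (adjusted p = 0.096). In that fit 0 of 19938 genes passed at day 0 to 3, so that a lost call there is not particular to Ndrg2. In week 3 to 4 of the same fit, 16 genes were higher and 1 lower.

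**Figure D4:**
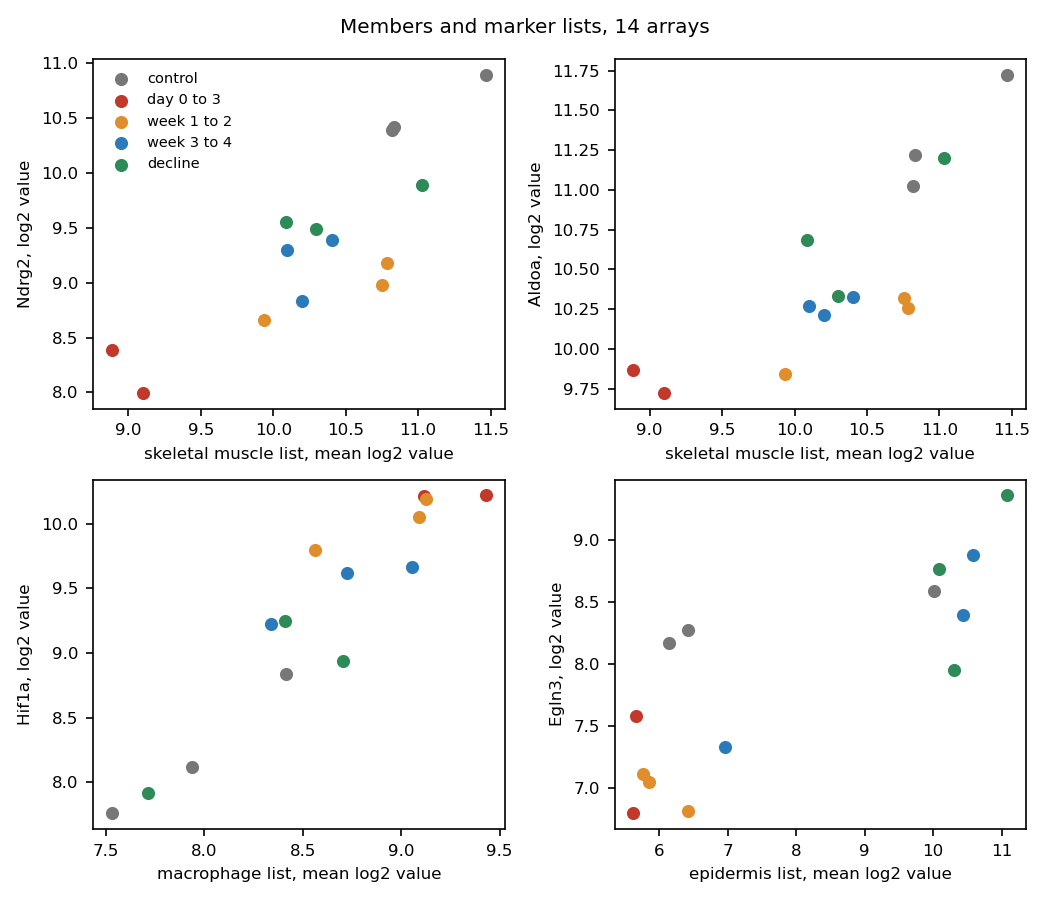
Log2 values of 4 members (vertical axes) against the mean log2 value of a marker list on the same array (horizontal axes), 1 point per array and colours for the 5 groups. Ndrg2 and Aldoa lie low where the muscle list lies low, Hif1a lies high where the macrophage list lies high, and Egln3 lies high on most arrays where the epidermis list lies high.

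Ndrg1, a relative of Ndrg2 and a widely used hypoxia marker, did not pass in any phase. It measured 8.01, 7.29 and 8.18 in controls, 7.50 and 7.50 in the day 0 to 3 joints, 7.29, 7.44 and 7.42 in the week 1 to 2 joints, 7.61, 7.50 and 7.60 in the week 3 to 4 joints and 7.89, 7.54 and 7.36 in decline. Control 2 lay at the bottom of the whole range, so that the groups overlapped, and the change of -0.33 ± 0.23 at day 0 to 3 did not pass (adjusted p = 0.38).

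The other 6 targets did not pass in any phase. Car9, a carbonic anhydrase that is a classical HIF-1 target, changed by -0.38 to -0.29, and Adm, which encodes adrenomedullin, by -0.25 to 0.03. Over the 14 arrays Car9 measured 5.17 to 6.12, below the median over genes of each array (6.25 to 6.40). A fall may not show at values this low. Ankrd37 changed by -0.17 to 0.02, the Max interactor Mxi1 by -0.32 to 0.19 and Ddit4, an inhibitor of mTOR signalling, by 0.17 to 0.49. Ddit4 lay above all controls at day 0 to 3 and in week 1 to 2 (adjusted p = 0.11 and 0.13). Bnip3, a mitophagy receptor, changed by -0.36 to -0.19 in its brightest probe set and by 0.57 to 0.95 in a second, which did not pass either (adjusted p = 0.0711 or higher over all probe sets), so that its direction is unsettled.

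Counted by position alone, 6 of the 30 members lay wholly above the controls at day 0 to 3 and 8 wholly below, where 18.4% and 27.8% of all genes did. In week 1 to 2 the counts were 4 and 6, against 13.6% and 23.3% of all genes.

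Among 29 measured genes of a list of 31 further hypoxia targets, 4 were higher and 1 lower at day 0 to 3, 5 were higher and 0 lower in week 1 to 2, and none passed in week 3 to 4 or decline. The called genes were 17.2% of the list in each of the first 2 phases, against 7.82% and 10.1% of all genes. The list's median change was 0.51, 0.40, 0.48 and 0.10, against -0.12, -0.13, -0.09 and -0.05 over all genes. Plod2, a lysyl hydroxylase of collagen, rose by 2.14 ± 0.45 and 2.19 ± 0.40 at day 0 to 3 and in week 1 to 2 (adjusted p = 0.014 and 0.0067), and Lox, which crosslinks collagen, by 2.08 ± 0.47 and 1.80 ± 0.42 (adjusted p = 0.02 in both). Tfrc, the transferrin receptor, rose by 1.22 ± 0.26 in week 1 to 2 (adjusted p = 0.014, limma). Bnip3l, a mitophagy receptor, rose by 0.94 ± 0.24 in the same phase (adjusted p = 0.027). Bnip3l had 2 probe sets, and the change of the one not used is not given here. Stc2, named as the 1 lower gene, changed by -0.68 ± 0.15 (adjusted p = 0.019). The study chose Lox on these arrays, so its direction is not independent evidence.

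Between successive phases no member passed: week 1 to 2 against day 0 to 3 (0.00502% of all genes called), week 3 to 4 against week 1 to 2 (0.00502%) and decline against week 3 to 4 (0.0%). At an unadjusted p under 0.05 the counts of members were 2, 1 and 3, and of all genes 356, 993 and 1223.

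Between the declining joints and the mean of the 2 early groups, a comparison without the control arrays, 5 of the 30 members passed (16.7%, against 4.75% of all genes, 2.67% higher and 2.08% lower). Lower in decline were Hif1a at -1.41 ± 0.29 on the log2 scale (2.66-fold, adjusted p = 0.016), and Slc2a1 at -0.67 ± 0.16 (1.60-fold, adjusted p = 0.028). Higher in decline were Egln3 at 1.60 ± 0.35 (3.04-fold, adjusted p = 0.022), Ndrg2 at 1.08 ± 0.19 (2.12-fold, adjusted p = 0.01) and Aldoa at 0.77 ± 0.21 (1.70-fold, adjusted p = 0.049).

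Slc2a1, the basal glucose transporter, is described in full because of its value in this comparison, and so after that value was seen. It measured 7.57, 7.12 and 7.69 in controls, 7.97 and 7.49 in the day 0 to 3 joints, 7.51, 7.57 and 7.68 in the week 1 to 2 joints, 7.29, 7.35 and 7.47 in the week 3 to 4 joints and 6.93, 7.09 and 6.93 in decline. The declining joints lay below every other joint, the controls included, though against control the change of -0.48 ± 0.17 did not pass (adjusted p = 0.33).

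The 5 early arrays carried the first letter code and the 3 declining arrays the second. With the code as a term, which rests on the week 3 to 4 joints that hold both, none of the 5 members passed. Nor did any of the 19938 genes, and the Egln3 change was 0.29 (adjusted p = 0.93). The Hif1a, Slc2a1, Ndrg2 and Aldoa changes were then -1.24, -0.80, 1.27 and 0.77 (adjusted p = 0.65 to 0.79). With the epidermis mean as a covariate none passed either, and Egln3 changed by 0.48 (adjusted p = 0.73). Of all genes, 2 were higher and 1 lower in that fit. All 7 epidermis markers were called higher in decline than in the early joints, against 2.67% of all genes. With all 15 arrays none of the 5 members passed, and of all genes 106 were higher and 13 lower.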

How the data were processed

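RNA of whole tarsal joints, isolated by a mirVana kit and amplified by a Pico kit of NuGEN, had been hybridised to Mouse Gene 1.0 ST arrays in 1 colour. The authors made log2 values by RMA (background correction, quantile normalisation and a summary per probe set), for which the submitters' processing notes name affy and R 2.15, and deposited 35556 probe sets on 15 arrays, with values from 1.56 to 14.26. The number of arrays normalised together and the version of affy are not stated in the sources used here. Quantile normalisation sets arrays to a common distribution, yet the deposited arrays still differed, with an SD over genes from 1.08 to 1.65, so a second quantile normalisation was 1 of the alternatives.

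Of the probe sets, 21789 named 1 gene, 1621 several and 12146 none in the platform annotation; for 999 genes with several probe sets the one with the highest mean over the 14 arrays was used. The 5 group means were fitted in limma 3.58.1 under R 4.3.3 with lmFit and eBayes. A gene passed when its p, adjusted by Benjamini-Hochberg over 19938 genes, was under 0.05, in 8 comparisons. Replicates are separate mice, 2 or 3 per group, and this number limits the precision; arrays have no read depth. The calculation was tested on simulated data.

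The members and all lists were chosen with earlier results of these data known. Array values are given for members called against control and for Hif1a, Epas1, Vhl, Ndrg1 and Ndrg2, and from each further list up to 4 called genes with the largest change are named. Outside this rule, Slc2a1, Slc16a1, Pdk3, Stc2 and the plotted isoforms were added after their values were seen. Results were recomputed with animal 57, with single arrays left out, with the arrays of narrowest range removed, and with other moderation, weights, scalings, probe set rules and filters, a fold limit, the letter code and marker means as covariates. Python 3.11.15 with matplotlib 3.10.9 drew the figures. Promoter sequences came from RefSeq on GRCm38.p6.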

Additional observations from a re-analysis of the deposited data

Results flagged for a closer look

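The contrast of decline with the mean of the 2 early groups was a test of change between phases, and 5 members passed it in limma, with log2 changes of 0.77 for Aldoa, 1.60 for Egln3, -1.41 for Hif1a, 1.08 for Ndrg2 and -0.67 for Slc2a1. None of them passed with the letter code as a term, nor did any other gene.

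Animal 57, the array left out for failed quality control, had values above the highest control for 5 members: Aldoc at 6.77, Pgam1 at 7.45, Car9 at 6.17, Ankrd37 at 7.64 and Ddit4 at 6.97 on the log2 scale. Most members lay below the lowest control on this array instead. Among them were Hif1a at 6.43 against 7.76, Hk1 at 9.27 against 10.4 and Tpi1 at 7.06 against 8.55. The share of all genes above or below the controls on this array was not counted. The log2 values of this array had an SD over genes of 1.08, the smallest of the 15 arrays.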

How the results depend on the processing

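No called change of a member reversed its direction under any alternative. Counts of called members are given here by comparison. At day 0 to 3 against control, where 3 were called, the count was 5 without control 2 and decline 10, whose values span the narrowest range, 5 with arrays set to one median and SD, 5 after a second quantile normalisation, 0 with the muscle mean as a covariate and 1 with the macrophage mean, and 1 to 4 when each array was left out in turn, lowest without animal 16 or animal 18. In week 1 to 2, where 5 were called, it was 2 with all 15 arrays, 3 without moderation, 8 with array weights, 3 with arrays centred on their medians, 10 after a second quantile normalisation, 3 with all probe sets in the adjustment, 1 with the macrophage mean as a covariate, and 3 to 6 with each array left out. In week 3 to 4, where 2 were called, it was 0 with all 15 arrays, 4 without the narrowest arrays, 0 with only the groups compared, 0 without moderation, 1 with trend and robust moderation, 1 with arrays centred, 4 after a second quantile normalisation, 1 with all probe sets, 0 with the muscle mean, 1 with the epidermis mean and 0 with the macrophage mean as a covariate, and 0 to 4 with each array left out, lowest without animal 60 and highest without decline 10. For decline against the early groups, where 5 were called, it was 0 with all 15 arrays, 3 without the narrowest arrays, 1 without moderation, 0 with the letter code as a term, 0 with the muscle, 0 with the epidermis and 0 with the macrophage mean as a covariate, 3 with a fold of at least 2 required, and 1 to 5 with each array left out, lowest without animal 18. The calls over all genes shifted as well. At day 0 to 3 they went from 890 higher and 669 lower to 0 with the muscle mean, and to 26 and 67 with the macrophage mean. In week 1 to 2 they went from 1079 and 926 to 22 and 84 with all 15 arrays. After a second quantile normalisation they were 906 and 801. In week 3 to 4, 0 genes passed with all 15 arrays, without moderation or without animal 60. The causes of these shifts were not tested, and the epidermis and macrophage covariates were chosen after seeing the data. Decline against control and the 3 comparisons of successive phases gave 0 members under every alternative. Aldoa and Ndrg2 in week 1 to 2 kept their calls with each array left out and with all 15 arrays; Aldoa lost it with the macrophage covariate. No paired analysis was possible because the groups share no replicate numbers. Groups of 2 or 3 arrays limit what can be called, and probe sets near the background of the array cannot show a fall.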
